A study of Sus scrofa with 22 samples.

Results

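The genes described here are 6 drug-metabolising enzymes of the pig small intestine. They are the cytochromes P450 CYP3A29, CYP2C42 and CYP2B22, the flavin-containing monooxygenase FMO1, and the sulfotransferases SULT1A3 and SULT1E1. They were taken by symbol, through the RefSeq accession of each probe. They hold 12 of the 43603 probes of the array, and all 6 are among the 24761 genes tested. Each gene is described by its brightest probe, the one with the highest mean Cy5 signal over the 22 arrays, and its other probes serve as a check. The genes were chosen by symbol with the differences between the groups on these same arrays known, and their probes were selected on brightness, so how many of them pass a test says nothing about drug metabolism as a whole.

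The arrays come from 2 experiments on gut damage by chemotherapy in crossbred SPF piglets (Large White × Danish Landrace). In the DOX experiment 6 piglets received 1 dose of doxorubicin, an inhibitor of topoisomerase II, and 6 were untreated. In the BUCY experiment 5 piglets received busulfan with cyclophosphamide, drugs that alkylate DNA, and 5 were untreated. Per the series' design text the piglets were 3 days old and had suckled their mother before arrival, and drugs went in through a catheter in the jugular vein. It also says that pigs were anesthetized (tiletamine, zolazepam, xylazine, ketamine and butorphanol) to fit the catheter and a stomach tube before treatment, and that all animals were killed with sodium pentobarbital. The labels name the tissue only as small intestine; the sources used here give no dose, part of the intestine or time of sampling. The experiments were separate, so drug and experiment cannot be told apart when BUCY is set against DOX.

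Intestinal drug metabolism is a barrier to swallowed foreign compounds and is at work mainly in the enterocytes that line the villi. First, cytochromes P450 and flavin-containing monooxygenases oxidise a compound. Then transferases attach sulfate, glucuronic acid or glutathione, which makes it easier to export. Many CYP2 and CYP3 genes are switched on by the nuclear receptors PXR (gene NR1I2) and CAR (gene NR1I3). Cyclophosphamide is itself a prodrug, activated by CYP2B and other P450 enzymes.

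Every level below sets a piglet's RNA (Cy5) against a pool of all samples (Cy3) on the same array as a log2 ratio, so 0 is the level of the pool and 1 unit is a doubling. A level compares piglets at 1 probe and cannot be set against another gene's. A gene was called changed when limma's adjusted p, taken over all 24761 genes, was under 0.05. Cy5 was well above background at 59.7% to 72.5% of probes per array. Precision is limited by how many arrays there are. BUCY treated arrays 2 and 3 stood apart: principal component 2 put them at 55.5 and 67.8 and the other arrays at 28.4 or less. Array 3 had the lowest share of probes above background (59.7%) and the lowest median Cy5 signal (88). Array 2 was the only array on its slide. The part of signal or slide in their position was not tested. Results on BUCY are therefore also given without them. All 8 tested enterocyte markers (such as FABP1, FABP2 and APOA1) stood well above background on every array.

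The 6 genes did not share a pattern. FMO1 rose after either drug. SULT1A3 rose after BUCY, and after DOX it lay above every untreated piglet without passing the test over all genes. CYP2B22 fell after BUCY and stood higher in untreated piglets of the BUCY experiment than in the other 3 groups. CYP3A29 was also highest in those untreated piglets, and its estimates for the drugs had opposite signs. CYP2C42 passed no test. SULT1E1 was lower after BUCY by a call that some settings ended.

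**Figure D1:**
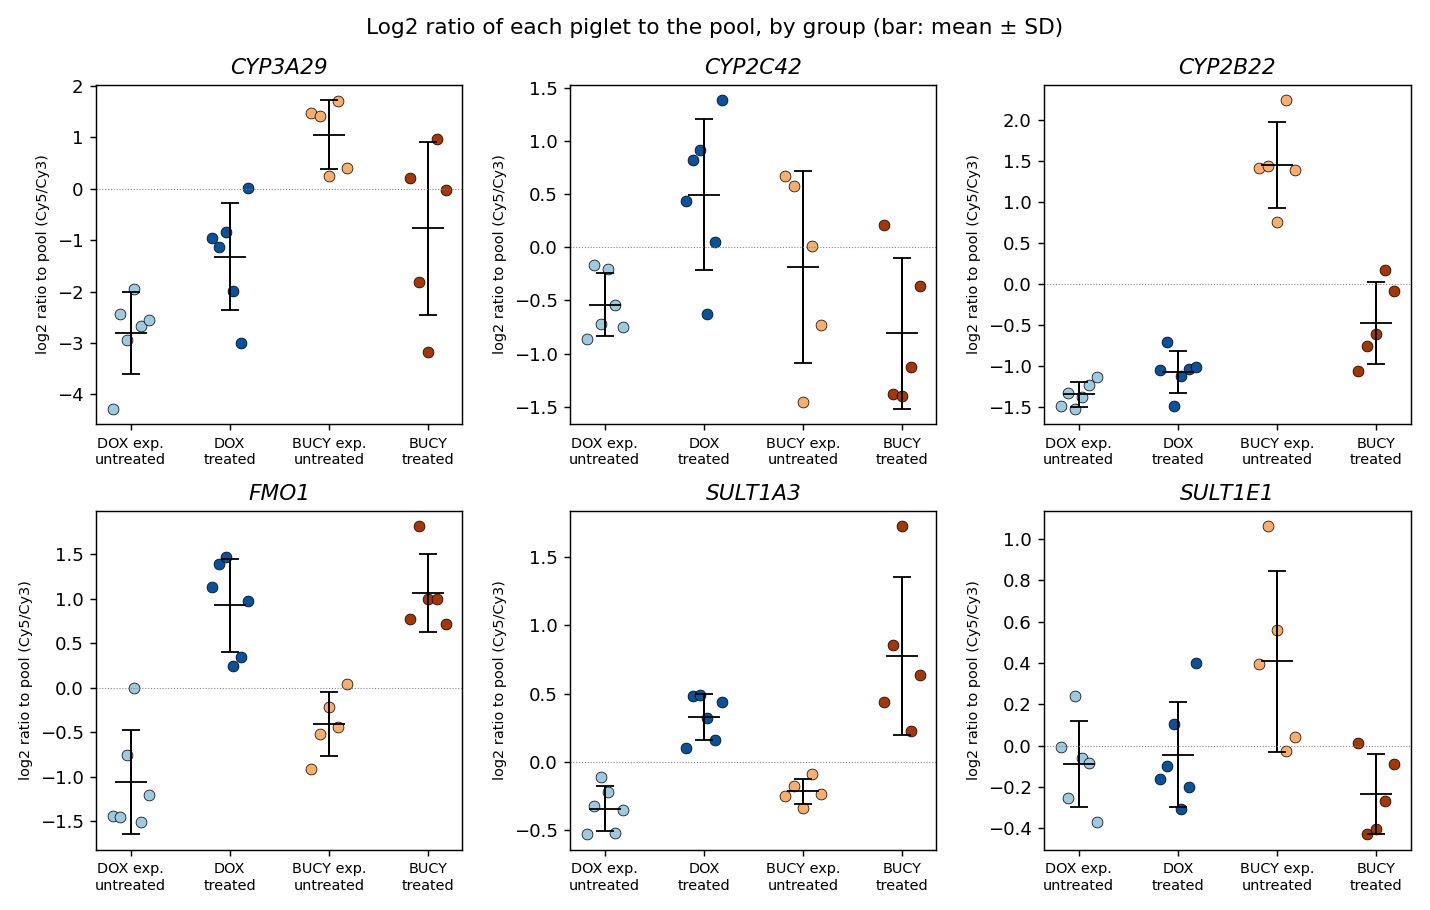
Log2 ratio to the pool (vertical axis, own scale in each panel) of every piglet for the 6 genes, in the 4 groups; points are piglets and bars the mean ± SD (n = 6, 6, 5 and 5 from left to right). For FMO1 all treated piglets lie at 0.24 or more and all untreated ones at 0.040 or less, while CYP3A29 and CYP2B22 are highest in the untreated piglets of the BUCY experiment.

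CYP3A29 is a pig enzyme of the CYP3A subfamily, which oxidises a wide range of drugs in liver and gut. In untreated piglets of the DOX experiment its level ran from -4.28 to -1.95 with a median of -2.61. In DOX treated piglets it ran from -3.0 to 0.020 with a median of -1.05. Treated piglets lay above the untreated mean in 5 of 6 cases, and the groups overlapped. After DOX the CYP3A29 level was higher by 2.80-fold (log2 change 1.48, SE 0.584, 95% interval 0.27 to 2.70) and missed the threshold, with limma's adjusted p = 0.246. Within slides that hold both groups the difference was 0.29 to 2.39, and within scan days 0.73 to 2.17. Here and below, DOX differences within slides rest on 3 slides with 1 to 3 treated and 1 or 2 untreated arrays each.

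In the BUCY experiment the 5 untreated piglets had CYP3A29 levels of 1.47, 1.43, 0.24, 1.70 and 0.41. The 5 BUCY treated piglets had levels of 0.20, -1.82, -3.18, 0.97 and -0.032. All 5 treated piglets lay below the untreated mean, the ranges overlapped, and the lowest levels were those of arrays 2 and 3. CYP3A29 was 3.54-fold lower (log2 change -1.82, SE 0.640) and just missed the threshold, with limma's adjusted p = 0.0532. Leaving out arrays 2 and 3 gave -0.67 (adjusted p = 0.609), while without treated array 1, 4 or 5 it passed, at -2.07, -2.26 and -2.01 (adjusted p = 0.0294, 0.0178 and 0.0433). Under median centring it passed as well (-2.46, adjusted p = 0.0473), and so did the mean of its 3 probes (-1.81, adjusted p = 0.0407). Within slides the difference was -2.81 to -0.042, and within scan days -2.81 to -0.45. Here and below, BUCY differences within slides rest on 3 slides with 1 or 2 treated arrays and 1 untreated array each. The BUCY arrays compared on slides 5 and 7 are also those of scan days 2 and 3.

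Enterocyte markers were low on the same 2 arrays. Their mean log2 ratio was -1.42 on array 2 and -2.27 on array 3, against -0.093 to 0.74 in the other 3 BUCY treated piglets and 0.073 to 0.84 in the untreated. Of the 8 markers 5 fell after BUCY (median log2 change -1.24). FABP1 (0.54), FABP2 (-0.018) and APOA4 (-0.054) did not pass (limma's adjusted p = 0.509, 0.988 and 0.957). The part of enterocyte content in the CYP3A29 and CYP2B22 values was not tested. In RNA from whole tissue, fewer cells of a type and less RNA per cell cannot be told apart. T and NK cell markers were lower too, in all 5 BUCY treated piglets (-1.43 to -0.99, untreated -0.31 to 0.46), and 10 of 12 fell. The 5 liver markers tested, of which 1 rose after BUCY, ran from -0.62 to 0.69 in treated and from -0.12 to 0.20 in untreated piglets. After DOX, 3 of the 12 T and NK cell markers fell (CD3E, CD8A and LCK), and the list ran from -0.70 to 0.32 in treated and from 0.15 to 0.61 in untreated piglets. Of 5 pancreas markers 1 fell after BUCY, and of 5 adipocyte markers 1 rose. Of all tested genes with a symbol 26.1% were called after BUCY and 1.77% after DOX. The counts of 1 of 5 for liver, pancreas and adipocyte markers are near the BUCY share, and nothing is read from them.

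The untreated piglets of the experiments already differed in CYP3A29. Those of the BUCY experiment stood 14.5-fold above those of the DOX experiment (log2 difference 3.85, SE 0.613, limma's adjusted p = 8.23e-05), with no overlap. Of the 8 enterocyte markers 4 were called higher and 1 lower there (median 0.79), where 34.1% of tested genes with a symbol were called. The part of enterocyte content in this difference, and in that of CYP2B22, was not tested. The BUCY effect minus the DOX effect was -3.31 (SE 0.867, limma's adjusted p = 0.0263). That call ended without arrays 2 and 3 (-2.16, adjusted p = 0.104), without BUCY treated array 2 (-3.05, adjusted p = 0.0594) or DOX treated array 6 (-3.04, adjusted p = 0.0525), under median centring (-3.82, adjusted p = 0.113), with slides blocked (-2.96, adjusted p = 0.151), and without the 6 arrays with a suffix in their title (-3.24, adjusted p = 0.0963). The suffix arrays are BUCY treated 3, 4 and 5, BUCY untreated 4 and 5, and DOX treated 3. By mean level the groups ran from the untreated of the DOX experiment (-2.80 ± 0.79, SD, n = 6) through DOX treated (-1.32 ± 1.04, SD, n = 6) and BUCY treated (-0.77 ± 1.69, SD, n = 5) to the untreated of the BUCY experiment (1.05 ± 0.67, SD, n = 5). Each pair of neighbours in that order overlapped.

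CYP2B22 belongs to the CYP2B subfamily, whose members activate cyclophosphamide and are classical targets of CAR. The 5 untreated piglets of the BUCY experiment had levels of 1.42, 1.45, 0.76, 2.24 and 1.40. The 5 BUCY treated piglets had levels of -1.05, -0.75, -0.61, 0.17 and -0.086, all below every untreated piglet. CYP2B22 fell 3.78-fold after BUCY (log2 change -1.92, SE 0.223, 95% interval -2.38 to -1.46, limma's adjusted p = 2.83e-05). The change without arrays 2 and 3 was -1.78 (adjusted p = 6.16e-04), and over the 10 arrays of the experiment left out in turn it stayed between -2.09 and -1.72. Within slides and within scan days it was -2.46 to -1.48.

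In the DOX experiment CYP2B22 was low in both groups. Its brightest probe was dim, with a median Cy5 signal of 132.2 against 124.2 for SULT1E1, though well above background on all 22 arrays. Untreated piglets ran from -1.51 to -1.13 with a median of -1.35, and DOX treated ones from -1.49 to -0.70 with a median of -1.04. The groups overlapped, and the log2 change of 0.27 (SE 0.203, 95% interval -0.15 to 0.70) missed the threshold (limma's adjusted p = 0.575). The effects of the drugs differed by -2.19 (SE 0.301, limma's adjusted p = 4.45e-04). Untreated piglets of the BUCY experiment stood 6.95-fold above those of the DOX experiment (log2 difference 2.80, SE 0.213, limma's adjusted p = 1.13e-08), without overlap. By mean level the untreated (-1.34 ± 0.15, SD, n = 6) and treated (-1.07 ± 0.25, SD, n = 6) of the DOX experiment came first and overlapped. BUCY treated piglets (-0.47 ± 0.50, SD, n = 5) followed and overlapped with the DOX treated ones, and the untreated of the BUCY experiment (1.45 ± 0.52, SD, n = 5) stood clear of the rest. The scanner software's own log ratios, which carry no offset, gave wider CYP2B22 differences, -2.54 after BUCY and 4.08 between the untreated groups. After DOX they gave 0.17 (limma's adjusted p = 0.841), and the part of low signal in the DOX values was not tested.

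CYP2C42 is a pig member of the CYP2C subfamily, which oxidises drugs and fatty acids. In the DOX experiment untreated piglets ran from -0.87 to -0.16 with a median of -0.64, and treated ones from -0.63 to 1.38 with a median of 0.63. Treated piglets lay above the untreated mean in 5 of 6 cases, and treated array 4 lay inside the untreated range. CYP2C42 was 2.05-fold higher (log2 change 1.04, SE 0.361, 95% interval 0.29 to 1.79) without passing (limma's adjusted p = 0.181). Within slides the difference was 0.47 to 1.55, and within scan days 0.77 to 1.21.

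The levels of CYP2C42 in the BUCY experiment spread widely in both groups. Untreated piglets had 0.67, 0.58, -1.46, 0.016 and -0.73, and treated ones 0.21, -1.38, -1.40, -1.12 and -0.37. The change of -0.63 (SE 0.395, 95% interval -1.45 to 0.20) did not pass (limma's adjusted p = 0.287), and within slides it ran from -1.28 to 1.67. It was -0.24 without arrays 2 and 3. The effects of the drugs differed by -1.66 (SE 0.535, limma's adjusted p = 0.0705). That difference passed without BUCY treated array 1 (-1.92, adjusted p = 0.0228), BUCY untreated array 3 (-1.98, adjusted p = 0.0239) or DOX treated array 4 (-1.89, adjusted p = 0.0330). It did not pass without any of the other 19 of 22 arrays (adjusted p of up to 0.137). Nor did it pass in any of 12 other settings (-2.04 to -1.26, adjusted p = 0.0711 to 0.341). Between the untreated groups the difference was 0.36 (SE 0.379, limma's adjusted p = 0.554), and all neighbours in the order of group means overlapped. That CYP2C42 difference was 0.14, 0.17 and 0.68 without untreated array 1, 2 or 3 of the BUCY experiment and 0.080 under median centring, and it passed in none of these settings.

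FMO1 is a flavin-containing monooxygenase, an enzyme that adds oxygen to nitrogen and sulfur atoms of drugs. In untreated piglets of the DOX experiment its level ran from -1.51 to -0.0079 with a median of -1.32. In DOX treated piglets it ran from 0.24 to 1.47 with a median of 1.05, so every treated piglet lay above every untreated one. FMO1 rose 3.96-fold (log2 change 1.99, SE 0.265, 95% interval 1.44 to 2.54, limma's adjusted p = 1.74e-04). Over the 12 arrays of the experiment left out in turn the change stayed between 1.88 and 2.20 with adjusted p of 8.63e-04 or less. Within slides it was 0.53 to 2.58, and within scan days 1.42 to 2.48.

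After BUCY the FMO1 levels also stood above all untreated piglets. The 5 untreated piglets had -0.92, -0.52, -0.22, -0.44 and 0.040, and the 5 treated ones 0.77, 1.81, 1.0, 1.0 and 0.72. FMO1 rose 2.77-fold (log2 change 1.47, SE 0.290, 95% interval 0.87 to 2.07, limma's adjusted p = 0.00195). Without arrays 2 and 3 the change was 1.24 (adjusted p = 0.0296), within slides 0.68 to 1.44 and within scan days 0.68 to 1.84. Median centring in place of loess lowered it to 0.97 and ended the call (adjusted p = 0.0615). The macrophage markers CD163 and CD14 also rose after either drug, by 1.31 and 1.26 on the log2 scale after DOX (limma's adjusted p = 5.06e-04 and 0.00118) and by 1.44 and 0.81 after BUCY (adjusted p = 1.68e-04 and 0.0138). Of the other 5 macrophage markers AIF1 fell after BUCY (-0.54, adjusted p = 0.0438). C1QA, C1QB and C1QC had negative estimates after either drug that did not pass. After each drug 3 of the 7 were higher and 4 lower, with a median of -0.31 for DOX and -0.54 for BUCY. The mean of all 7 ran from -0.25 to 0.53 in DOX treated and from -0.092 to 0.27 in untreated piglets of that experiment, and from -0.97 to 0.32 in BUCY treated and from -0.80 to -0.14 in untreated ones. The part of these cells in the FMO1 values was not tested.

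The drugs' effects on FMO1 differed by -0.51 (SE 0.393, 95% interval -1.33 to 0.30, limma's adjusted p = 0.533), an interval that leaves room for a larger effect of either drug. Over 12 other settings this difference ran from -0.92 to -0.034 without passing. The untreated groups differed by 0.65 (SE 0.278, limma's adjusted p = 0.0921), and by 0.86 without untreated array 4 of the DOX experiment, where the difference passed (adjusted p = 0.0160). By mean level the order was untreated of the DOX experiment (-1.06 ± 0.59, SD, n = 6), untreated of the BUCY experiment (-0.41 ± 0.36, SD, n = 5), DOX treated (0.92 ± 0.52, SD, n = 6) and BUCY treated (1.06 ± 0.44, SD, n = 5). The untreated groups overlapped, as did the treated ones.

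SULT1A3 attaches sulfate to small phenols; the pig gene is also listed under the name SULT1A1. Its levels in untreated piglets of the DOX experiment ran from -0.53 to -0.11 with a median of -0.34. In DOX treated piglets they ran from 0.099 to 0.49 with a median of 0.38, above all of the untreated. SULT1A3 was 1.60-fold higher (log2 change 0.67, SE 0.166, 95% interval 0.33 to 1.02), just short of the threshold (limma's adjusted p = 0.0549). It passed as the mean of its 2 probes (0.74, adjusted p = 0.0427), with only the groups of that experiment in the fit (0.67, adjusted p = 0.00280) and without the suffix arrays (0.64, adjusted p = 0.00636). It did not pass in the other 9 of 12 settings (adjusted p of up to 0.192). Nor did it pass with any 1 of the 12 arrays left out (adjusted p = 0.0604 to 0.14). Within slides the difference was 0.53 to 0.59, and within scan days 0.61 to 0.67.

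In the BUCY experiment SULT1A3 was called. The 5 untreated piglets had -0.25, -0.17, -0.33, -0.087 and -0.23, and the 5 treated ones 0.44, 0.85, 1.73, 0.23 and 0.64. The lowest treated piglet lay above the highest untreated one, and array 3 was the highest of all. SULT1A3 rose 1.99-fold (log2 change 0.99, SE 0.182, 95% interval 0.61 to 1.37, limma's adjusted p = 0.00112). Without arrays 2 and 3 the change was 0.65 (adjusted p = 0.00296), and under median centring 0.48, where the call ended (adjusted p = 0.0598). Within slides it was 0.77 to 1.06, and within scan days 0.87 to 1.06. Smooth muscle markers ran from 0.20 to 1.46 in BUCY treated piglets, with array 3 the highest there too, and from -0.29 to 0.38 in untreated ones. Of the 5, DES rose (log2 change 1.01, limma's adjusted p = 0.0293) and the other 4 had changes of 0.23 to 0.71 that did not pass. The part of muscle in the SULT1A3 values was not tested.

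The effects of the drugs on SULT1A3 differed by 0.32 (SE 0.246, limma's adjusted p = 0.544), and by -0.024 without arrays 2 and 3. The untreated groups differed by 0.13 (SE 0.174, limma's adjusted p = 0.659), with the sign turned under median centring (-0.14). By mean level the order was untreated of the DOX experiment (-0.34 ± 0.17, SD, n = 6), untreated of the BUCY experiment (-0.21 ± 0.092, SD, n = 5), DOX treated (0.33 ± 0.17, SD, n = 6) and BUCY treated (0.78 ± 0.58, SD, n = 5). As for FMO1, overlap was confined to the pair of untreated and the pair of treated groups.

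SULT1E1 is the oestrogen sulfotransferase, which inactivates oestrogens by sulfation. It was measured by 1 dim probe that stood well above background on 20 of 22 arrays, and on 3 of 5 in BUCY treated piglets. In the BUCY experiment the untreated had 0.40, 1.06, 0.56, -0.024 and 0.042, and the treated 0.013, -0.43, -0.40, -0.27 and -0.089. All treated piglets lay below the untreated mean, and the ranges overlapped. SULT1E1 fell 1.56-fold (log2 change -0.64, SE 0.172, 95% interval -1.0 to -0.28, limma's adjusted p = 0.0147). The call ended without arrays 2 and 3 (-0.52, adjusted p = 0.160), with only that experiment in the fit (-0.64, adjusted p = 0.0911) and with slides blocked (-0.44, adjusted p = 0.158). The scanner software's log ratios gave -1.52 (adjusted p = 0.0208).

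After DOX the change in SULT1E1 was 0.045 (SE 0.157, 95% interval -0.28 to 0.37, limma's adjusted p = 0.928), with levels of -0.37 to 0.24 (median -0.071) untreated and -0.31 to 0.40 (median -0.13) treated. Its sign turned without DOX treated array 6 or untreated array 6 (-0.044 and -0.011). The untreated groups differed by 0.50 (SE 0.165, limma's adjusted p = 0.0313), and this call ended in 6 of 12 alternatives and without untreated array 1, 2 or 3 of the BUCY experiment or 2 or 6 of the DOX experiment (0.33 to 0.50, adjusted p = 0.0508 to 0.112). The effects of the drugs differed by -0.69 (SE 0.233, limma's adjusted p = 0.0872), and by -0.80 without untreated array 4 of the BUCY experiment, where the difference passed (adjusted p = 0.0455). All 4 groups overlapped with one another.

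**Figure D2:**
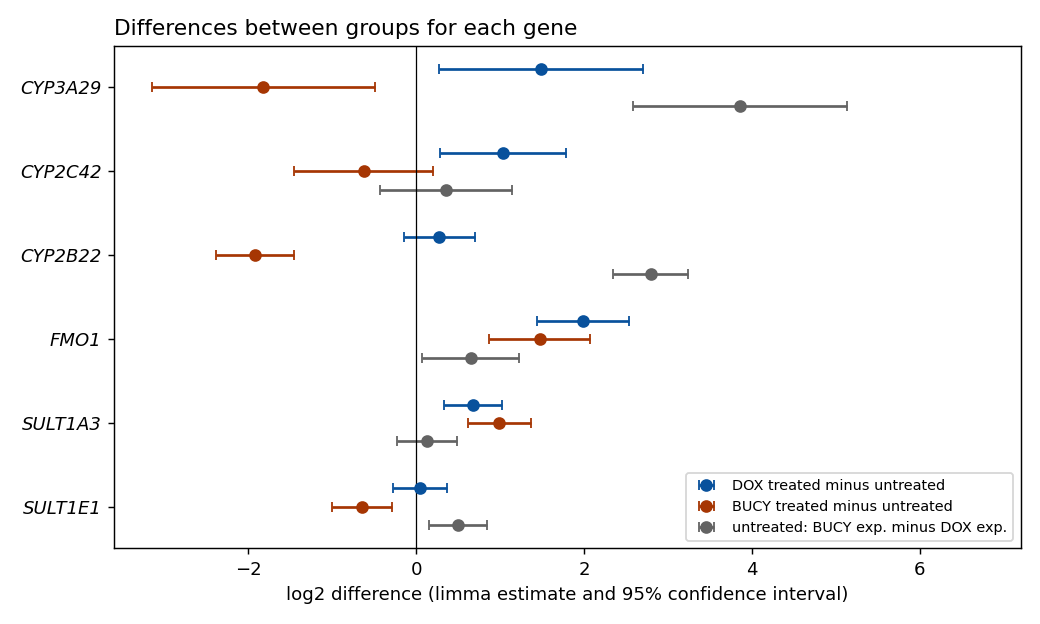
Differences between groups for the 6 genes (horizontal axis, log2 scale): points are limma's estimates and bars their 95% confidence intervals, in blue for DOX, in brown for BUCY and in grey for the untreated piglets of the BUCY minus those of the DOX experiment. The FMO1 and SULT1A3 intervals lie above 0 for either drug, and CYP2B22 and CYP3A29 have the largest differences between untreated groups, 2.80 and 3.85.

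Across the 6 genes, limma called FMO1 after DOX, where 0.848% of all genes were called (0.368% higher and 0.481% lower). After BUCY it called 4, with FMO1 and SULT1A3 higher and CYP2B22 and SULT1E1 lower, where 17.3% of all genes were called (8.23% higher and 9.05% lower). CYP3A29 and CYP2B22 were called for the difference between the drugs' effects, both lower for BUCY, against 5.88% of all genes (3.14% higher and 2.73% lower). CYP3A29, CYP2B22 and SULT1E1 were called between the untreated groups, all higher in the BUCY experiment, against 25.2% of all genes (13% higher and 12.2% lower). The shares are higher among tested genes with a symbol, as these 6 are. They were 1.77% after DOX, 26.1% after BUCY, 11% for the difference and 34.1% between the untreated groups. Since the 6 genes were chosen with these results known, no more is read from the counts. Under median centring 16.7% of the BUCY calls were higher, against 47.6% by loess, and the median of all genes moved by -0.12. For DOX the share went from 43.3% to 30.3%, for the difference of effects from 53.5% to 36.5% and for the untreated groups from 51.7% to 37.7%.

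The other probes of the same genes, all on the same arrays, gave the same sign as the brightest probe for the effect of each drug. The 3 CYP3A29 probes gave 1.40 to 1.48 after DOX, -1.83 to -1.78 after BUCY and 3.68 to 3.93 between the untreated groups. The 3 FMO1 probes gave 1.49 to 1.99 after DOX and 1.16 to 1.59 after BUCY, and the SULT1A3 probes 0.67 and 0.81, and 0.99 and 1.32. The second SULT1A3 probe differed in sign between the untreated groups (-0.095 against 0.13), and the third FMO1 probe in the difference between the drugs' effects (0.10 against -0.51). The second CYP2B22 probe, well above background on 7 of 22 arrays and on 0 of those of the DOX experiment, gave -1.24 after BUCY. CYP2C42 and SULT1E1 had 1 probe each.

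**Figure D3:**
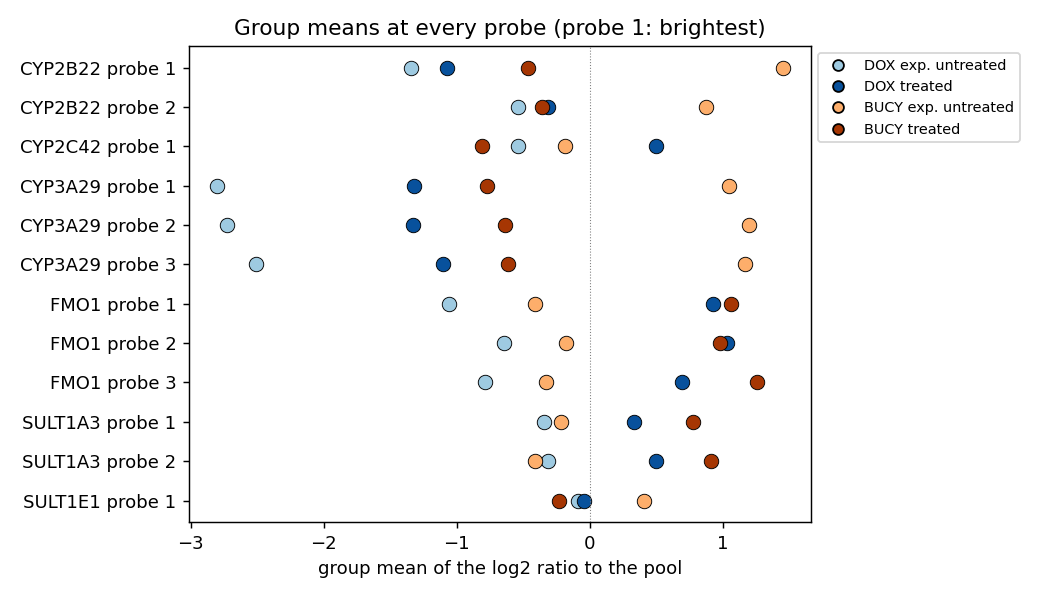
Group mean of the log2 ratio to the pool (horizontal axis) at each of the 12 probes of the 6 genes, numbered from the brightest probe down; each point is the mean of 1 group (n = 6, 6, 5 and 5 in the order of the key). The 3 FMO1 probes place both treated groups above both untreated ones, and the 3 CYP3A29 probes keep 1 order of groups.

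Other genes of drug metabolism were taken from 9 lists: P450s of families 1 to 3, FMO genes, other oxidising and hydrolysing enzymes, sulfation, glucuronidation, glutathione, methyl and acetyl transfer, drug transporters and regulators. Of 164 listed genes, 65 were tested, the 6 genes above included. After DOX, 1 of the 59 others passed, 1.69% against 1.77% of all tested genes with a symbol (median log2 change 0.042, all genes 0.0077). It was PPARGC1A, a coactivator of nuclear receptors, which fell 1.94-fold (log2 change -0.96, limma's adjusted p = 0.0475). Leaving out 1 array at a time ended that call for 9 of the 12 arrays of the experiment (PPARGC1A adjusted p = 0.0784 to 0.129): DOX treated 1, 2, 3 and 6, and untreated 1, 2, 4, 5 and 6. It also ended under median centring, with Cy5 alone, with no filter on dim probes and without the suffix arrays (PPARGC1A adjusted p = 0.0618 to 0.130). SULT2A1, a sulfotransferase of steroids and bile acids, was at 1.31 (adjusted p = 0.0501).

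After BUCY 15 of the 59 passed, 5 higher and 10 lower, or 25.4% against 26.1% of all tested genes with a symbol (median -0.18, all genes -0.0012). PPARGC1A fell 2.74-fold (limma's adjusted p = 6.90e-04) and SULT2A1 rose 3.27-fold (adjusted p = 0.00231). DPYD, which breaks down pyrimidines, fell 2.47-fold (adjusted p = 0.00259), with a log2 change of -1.30 that was -0.72 without arrays 2 and 3. UGP2, which makes UDP-glucose, rose 1.33-fold (adjusted p = 0.0120), with the sign turned under median centring (-0.077). The lactonase PON2 fell 2.37-fold, the mitochondrial aldehyde dehydrogenase ALDH2 1.59-fold and the peptide transporter SLC15A1 4.08-fold (adjusted p = 0.00544, 0.00959 and 0.0129). These 3 calls ended without arrays 2 and 3, at -0.70, -0.37 and -0.73 (adjusted p = 0.0904, 0.163 and 0.0579). The calls of DPYD, PON2, ALDH2, SLC15A1 and UGP2 ended with only the BUCY experiment in the fit (adjusted p = 0.0587, 0.0803, 0.105, 0.125 and 0.110). Without the suffix arrays, only treated arrays 1 and 2 and untreated arrays 1, 2 and 3 of the BUCY experiment remain. There the calls of SULT2A1 (1.17), DPYD (-1.28), PON2 (-1.07), ALDH2 (-0.74) and SLC15A1 (-1.89) ended (adjusted p = 0.0833, 0.0635, 0.0958, 0.0940 and 0.0501). With slides blocked those of UGP2 (0.34, adjusted p = 0.0866) and SLC15A1 (-1.72, adjusted p = 0.0972) ended, and SLC15A1 without BUCY treated array 2 was at -1.70 and just missed the threshold. The log2 change of SULT2A1, 1.71, was 3.39 in the scanner software's log ratios and 1.18 as the mean of its probes. Over the 65 genes, 19 were called (7 higher and 12 lower), and 11 without arrays 2 and 3 (8 higher and 3 lower). Over all 24761 genes 4277 were called (47.6% higher), and 1125 without arrays 2 and 3 (51.8% higher).

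**Figure D4:**
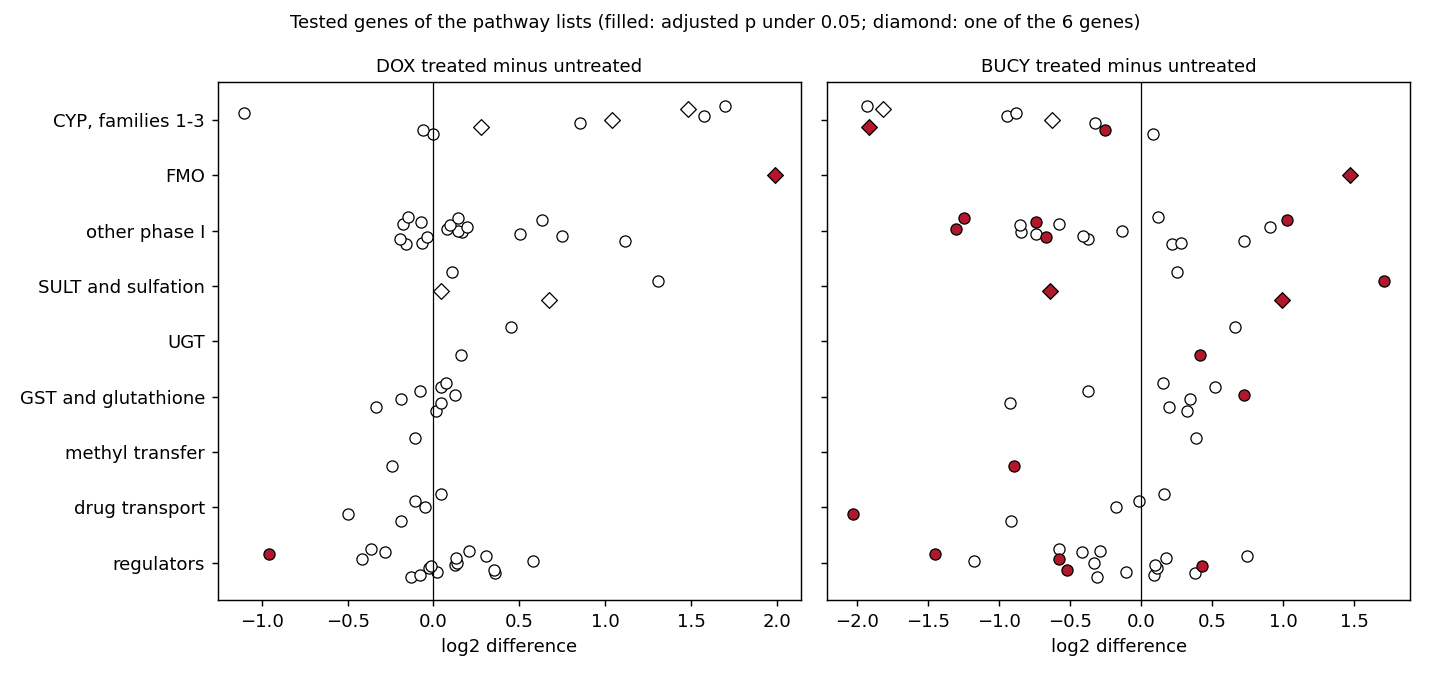
Log2 difference between treated and untreated piglets (horizontal axis) for each of the 65 tested genes, in 9 rows of gene lists, after DOX on the left and BUCY on the right; filled marks passed the adjusted p of 0.05 and diamonds are the 6 genes. After DOX 2 marks are filled, FMO1 and PPARGC1A, and after BUCY 19.

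Between the untreated groups 21 of the 59 others passed, 13 higher and 8 lower in the BUCY experiment, or 35.6% against 34.1% of all tested genes with a symbol (median 0.16, all genes 0.029). NR1I3, the receptor CAR, stood 4.19-fold higher (limma's adjusted p = 0.00296), PPARGC1A 2.46-fold (adjusted p = 3.77e-04), the carboxylesterase CES1 2.32-fold (adjusted p = 9.62e-04) and DPYD 2.10-fold (adjusted p = 0.00348). Of 8 tested glutathione genes 4 were called lower there and 1 higher. Among the lower were GSTO1 2.39-fold (adjusted p = 3.31e-04), the synthetase GSS 1.70-fold (adjusted p = 9.30e-05) and MGST3 1.51-fold (adjusted p = 0.00163). KEAP1, the inhibitor of NRF2, was 1.47-fold lower (adjusted p = 0.00143). Under median centring the calls of DPYD (0.86, adjusted p = 0.152) and MGST3 (-0.88, adjusted p = 0.0737) ended.

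The effects of the drugs differed for 4 of the 59 others, 6.78% against 11% of all tested genes with a symbol (median -0.14, all genes -0.0028). Among them were DPYD (-1.38, limma's adjusted p = 0.0259), PON2 (-1.39, adjusted p = 0.0345) and CES1 (-1.25, adjusted p = 0.0381), each lower for BUCY. Without arrays 2 and 3 DPYD (-0.80, adjusted p = 0.0658), PON2 (-0.84, adjusted p = 0.131) and CES1 (-1.02, adjusted p = 0.147) did not pass. These 3 calls also ended under median centring (adjusted p = 0.162, 0.185 and 0.0994) and without the suffix arrays (adjusted p = 0.147, 0.197 and 0.137). PON2 lost it as well with the scanner software's log ratios, Cy5 alone and slides blocked (adjusted p = 0.0570, 0.0904 and 0.0943), and CES1 with those log ratios and with no filter on dim probes (adjusted p = 0.0506 and 0.0531). With 1 of the 22 arrays left out at a time, PON2 lost its call for 12 arrays (adjusted p = 0.0501 to 0.0758) and CES1 for 15 (adjusted p of up to 0.0830), and DPYD without DOX treated array 6 (-1.27, adjusted p = 0.0516).

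Relatives and regulators of the P450 genes, chosen after their values were seen, are given as values. CYP3A46, a close relative of CYP3A29 whose probe may share its signal, was at 1.70 after DOX (limma's adjusted p = 0.313), at -1.94 after BUCY (adjusted p = 0.107) and at 3.24 between the untreated groups (adjusted p = 0.00413). CYP2C49, a relative of CYP2C42, was at 1.57, -0.95 and 1.84 in the same comparisons (adjusted p = 0.355, 0.448 and 0.0910). NR1I3 was at 0.58 after DOX and -1.18 after BUCY (adjusted p = 0.601 and 0.109), and NR1I2, the receptor PXR, at 0.14 and -0.33 (adjusted p = 0.649 and 0.0964). POR, the reductase that passes electrons to P450 enzymes, was at -0.15 and 0.12 (adjusted p = 0.861 and 0.840).

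For each of the 6 genes, the 3 most similar of 2625 other genes with a symbol were found by Pearson's r of the log2 ratio over the 22 arrays. The arrays share the group differences, so r describes these groups, and no test was made. Nearest to FMO1 were the kinase gene PRKAA2 (r = 0.834, Spearman's rho = 0.825), EFNB2 (0.804 and 0.848) and PDK4 (0.756 and 0.763). Nearest to SULT1A3 were SLC7A2 (0.901 and 0.850), EGFR (0.896 and 0.844) and UNC45A (0.875 and 0.775). For CYP3A29 they were the solute carriers SLC5A4 (0.898 and 0.877) and SLC28A1 (0.884 and 0.861) with FAM8A1 (0.896 and 0.909). CYP2B22 lay nearest to another P450 gene, CYP27A1 (0.903 and 0.797), then FOLH1B (0.896 and 0.718) and DPEP1 (0.890 and 0.721). CYP2C42 lay nearest to CYP2C49 (0.827 and 0.855) and CYP2C33 (0.766 and 0.752), whose probes may share its signal, and NTAN1 (0.746 and 0.717). SULT1E1 lay nearest to RPL30 (0.845 and 0.763), TTC14 (0.801 and 0.781) and FTH1 (0.794 and 0.740).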

How the data were processed

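Small-intestinal RNA of 22 piglets was hybridised to 22 two-colour Agilent arrays on 7 slides scanned on 3 days, each piglet in Cy5 and a pool of all samples in Cy3, per the labels. No dye order was swapped. The scanner files deposited by the authors hold median spot and background intensity, a log10 ratio of processed signals and flags (other columns), from Agilent Feature Extraction 10.7.3.1 per the file headers. The deposited value table is in log2 ratios. The submitters' processing notes list limma beside the scanner software; how the table was normalised is not given in the sources used here. It was set against the loess values below over at least 43561 probes (r = 0.974 to 0.998 per array, slopes 0.843 to 1.07, column medians 0.0015 to 0.018), and was used as an alternative, since the scanner files allow every step to be stated.

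Median intensities were corrected by normexp with an offset of 50, which narrows the ratios of dim probes, then normalised within arrays by loess, where control spots had weight 0 (limma 3.58.1, R 4.3.3). Spots marked as outliers (3 to 52 per array) were dropped, 0 spots were saturated, and spots of a probe were averaged. Accessions were joined to RefSeq genes (Sscrofa11.1), which named 6700 of 43603 probes (15.4%), 3029 symbols in all; 2653 of the 24761 tested genes have a symbol. The brightest probe stood for a symbol or array identifier, and it was tested where 5 or more arrays had Cy5 well above background. One limma fit to all 4 groups (two-sided, with 18 residual degrees of freedom and 3.38 from the prior) gave 4 comparisons, adjusted by Benjamini-Hochberg over all genes. The fit was tested on simulated data. P450 and sulfotransferase genes of close sequence can share signal.

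The replicate is the piglet, numbered in accession order, which pairs nothing. The 6 genes, the lists and the rules were chosen with earlier results of these data known. Up to 8 list genes past the threshold were named per comparison, by smallest p, except 1 gene that is not reported here; others are said to be chosen after their values were seen. Alternatives changed background correction, normalisation, channel, filter, probe choice, slide and scan day as blocks, the groups in the fit and the arrays left out. No sequences were used here. Figures were drawn with matplotlib 3.10.9.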

Additional observations from a re-analysis of the deposited data

Results flagged for a closer look

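FMO1 in BUCY treated array 2, at 1.81, lay far from the other 4 treated piglets (0.72 to 1.0); of 24 groups of levels checked for such a gap (6 genes in 4 groups) it was 1, and chance alone flags about 1 group in 20. The BUCY effect and the DOX effect differed by limma's test for CYP3A29 (-3.31 on the log2 scale, BUCY minus DOX) and CYP2B22 (-2.19). Among the other genes of drug metabolism they differed for DPYD (-1.38), PON2 (-1.39) and CES1 (-1.25). Experiment and drug cannot be told apart in these differences, and without BUCY treated arrays 2 and 3 CYP2B22 (-2.05, adjusted p = 0.00291) still passed and CYP3A29 (-2.16, adjusted p = 0.104) did not.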

How the results depend on the processing

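Of 294 values of the 6 genes under other settings, 271 kept their direction and side of the threshold, as did 313 of 330 with 1 array left out. The deposited value table changed 1 of 24 calls, SULT1E1 between the untreated groups (0.47). Median centring gave CYP3A29 -2.46 (BUCY, now called) and -3.82 (difference of effects), FMO1 0.97 and SULT1A3 0.48 after BUCY, all without a call but the first, and turned SULT1A3 for the difference of effects (-0.045) and the untreated groups (-0.14) and UGP2 after BUCY (-0.077). With slide as a fixed block CYP3A29 (difference of effects, -2.96) and SULT1E1 (BUCY -0.44, untreated 0.39) lost their calls. That block takes nothing from BUCY treated array 2, the only array on its slide. With slide as a random block, or scan day as a fixed one, all 24 values kept their direction and side of the threshold. With the mean of all probes CYP3A29 after BUCY (-1.81) and SULT1A3 after DOX (0.74) passed. With only the groups compared SULT1A3 after DOX (0.67) passed, and SULT1E1 (BUCY -0.64, untreated 0.50) did not. Without suffix arrays SULT1A3 after DOX (0.64) passed and the CYP3A29 difference (-3.24) did not. Without BUCY treated arrays 2 and 3 the CYP3A29 difference (-2.16) and SULT1E1 after BUCY (-0.52) lost their calls and the SULT1A3 difference turned (-0.024). SULT1E1 between the untreated groups also lost its call with no background correction (0.50), Agilent log ratios (0.94) and Cy5 alone (0.47). The cause was not tested.

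With 1 array left out, values ran for CYP2C42 (difference of effects) from -1.98 to -1.45, CYP3A29 after BUCY from -2.26 to -1.22 and its difference of effects from -3.74 to -2.70, FMO1 untreated from 0.54 to 0.86, and SULT1E1 after DOX from -0.044 to 0.11 (turned without treated array 6, -0.044, and untreated array 6, -0.011), its difference of effects from -0.80 to -0.52 and its untreated difference from 0.33 to 0.60.

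The called genes of the lists, 2 after DOX, were 1 with median centring, Cy5 alone or no filter, 4 with the mean of probes, 5 with only those groups and 1 to 2 with 1 array left out. Over all genes the 210 DOX calls were 89 with median centring, 135 with Cy5 alone and 198 with no filter (35866 genes tested). They were 223 with the mean of probes, 745 with only those groups and 119 to 359 with 1 array left out. The 19 after BUCY were 11 with slide as a block, 5 with only those groups, 9 without suffix arrays, 11 without arrays 2 and 3, and 11 (without treated array 2) to 25 with 1 array left out. Over all genes the 4277 BUCY calls were 2298 with slide as a fixed block and 897 with only those groups. They were 1482 without suffix arrays and 1125 without arrays 2 and 3. With 1 array left out they were 2280 (without treated array 2) to 6290 (without treated array 1). The 6 for the difference of effects were 1 with median centring, 2 without suffix arrays, 3 without arrays 2 and 3, and 2 (without DOX treated array 6) to 13 (without BUCY treated array 1) with 1 left out. Over all genes the 1455 calls for this difference were 104 with median centring, 330 without suffix arrays and 732 without arrays 2 and 3. With 1 left out they were 938 (without DOX treated array 6) to 2392 (without BUCY treated array 1). The 24 between untreated groups were 12 with median centring, where the 6239 calls over all genes were 3850. No paired analysis was possible because the labels give no replicate numbers. Depth of signal limits SULT1E1 and the second CYP2B22 probe, both close to background. The brightest CYP2B22 probe is also dim.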
